A study of Mus musculus with 4 samples.

Results

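The 55 genes described here encode DNA repair and damage checkpoint proteins of 7 pathways, and they were chosen by symbol from the 19797 gene symbols of the RefSeq table. By pathway there were 11 nucleotide excision repair genes, 14 genes of Fanconi crosslink repair, 14 of homologous recombination and 4 each of checkpoint signalling, mismatch repair, single-strand break repair and end joining. All 55 had reads, and 54 passed the filter on low values (a mean deposited FPKM of at least 1), so that they were among the 12050 genes tested. The gene outside it was Ercc2, which encodes a helicase of nucleotide excision repair and held 90 and 100 reads in Em+ and 105 and 120 in Em- cells. No listed gene was at 0 in any library, and the lowest count of a tested one was 115.

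RNA was sequenced from MC1-ZE7 mouse embryonic stem (ES) cells of strain MC1 (129S6/SvEvTac), kept without feeder cells in serum and leukemia inhibitory factor with no treatment named. Emerald, a green fluorescent protein, reports Zscan4 in this line, and cells were sorted by its brightness into an Emerald-positive high fraction (Em+) and an Emerald-negative fraction (Em-), with 2 libraries of each. All 4 libraries carry the reporter, and the comparison asks how Zscan4-positive and Zscan4-negative cells of this line differ. The construct behind the reporter, the number of clones in the line, and whether a fraction's libraries came from separate cultures were not given in the sources used here. The p-values therefore cover the spread among these 4 libraries and nothing wider, and that spread may be technical.

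Repair pathways divide the work by the kind of lesion. Nucleotide excision repair cuts out bulky damage, mismatch repair corrects replication errors, and nicks are sensed by PARP1 and sealed by DNA ligases. Double-strand breaks are joined directly by the Ku proteins, DNA-PK and ligase IV, or copied from a sister chromatid by homologous recombination, while Fanconi proteins release crosslinked strands. ES cells divide fast, with a short G1 phase, and are known for high levels of many replication and recombination proteins. Zscan4, a gene cluster of the 2-cell embryo that is switched on from time to time in a few ES cells, has been linked to telomere recombination and genome stability.

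The libraries held 17927765 and 16468218 counts (Em+ replicates 1 and 2) and 18364973 and 18953217 counts (Em- replicates 1 and 2). All 6 markers of the Zscan4-positive state were higher in Em+ cells, with a summed level of 245 and 250 against 1.19 and 2.24. The 10 ES cell markers were all measured, 1 (Nanog) higher and 1 (Tdh) lower in Em+. Their summed level was 3314 and 2878 against 3475 and 3410, with a median log2 fold change of -0.20. At an unadjusted p under 0.05 (edgeR) 2 were higher and 5 lower, where 14.5% and 10.7% of all genes were. Of 7 fibroblast markers 3 had a line in the table, and their sum was 12.6 and 12.1 against 6.39 and 6.83. Thy1 made up most of it and was the 1 marker called, while Col1a1, the defining collagen, stood at 0.534 and 0.632 against 0.209 and 0.313; their part in the repair gene values was not tested. Of the primitive endoderm and trophoblast markers 1 each reached the filter, and neither passed the test. The ribosomal RNA precursor model Rn45s took 7.95% of the counts of Em+ replicate 2 and 3.93 to 4.33% of the other 3 libraries. Levels throughout are TMM-scaled FPKM, that is, deposited FPKM (reads per length and depth) rescaled to the TMM-adjusted count total of the tested genes. They can be compared between genes and between libraries. RefSeq counts were 43.45 to 51.15% of the reads behind deposited FPKM, so levels are higher than deposited FPKM. Brca2 in Em+ replicate 1, for example, had a level of 35.8 and a deposited FPKM of 17.6. The filters use deposited FPKM.

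Of the 54 repair genes tested, 4 differed between Em+ and Em- cells by more than the spread between libraries, all higher in Em+. Ercc4, Fan1, Ercc6 and Brca2 rose in Em+ cells, by 5.07-fold, 2.14-fold, 1.39-fold and 1.36-fold, and no listed gene passed as lower (quasi-likelihood test of edgeR, threshold of 0.05 on the p adjusted by Benjamini-Hochberg over all genes). The call of Ercc4 depended on the transcript models used for counting, as given with its values. The 4 genes are 7.41% of the 54 tested. Over all 12050 genes, 4.64% passed in either direction, 3.82% higher and 0.822% lower, so that the share among the repair genes is not far from the background. DESeq2 called the same 4 and none lower, where 4.38% of all genes were called higher and 1.25% lower. With limma on log2(FPKM + 1) Ercc4 and Fan1 passed and none was lower, where 1.88% of all genes were called higher and 0.556% lower. At an unadjusted p under 0.05 (edgeR), 12 listed genes were higher and 7 lower, where 14.5% of all genes were higher and 10.7% lower, so that 7 of 54 lower is near the background. The median log2 fold change (Em+ over Em-) was 0.01 over the 54 genes and 0.00 over all genes. In 20 repair genes both Em+ values lay above both Em- values, in 14 both lay below, and in 20 the groups overlapped. Of all genes tested, 29.8% lay above and 29.6% below without overlap.

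**Figure D1:**
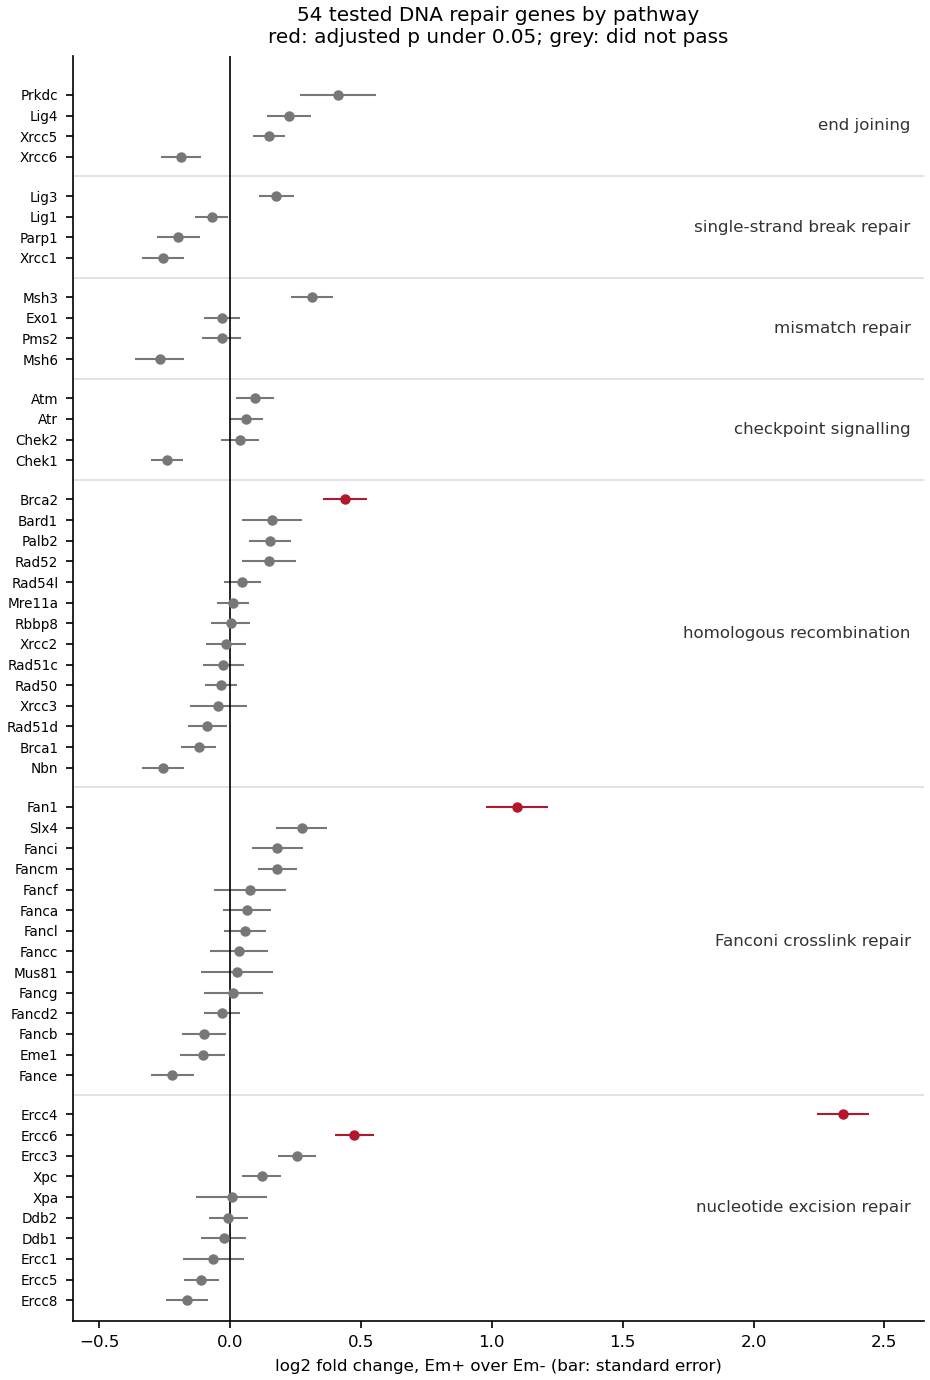
Log2 fold change of the 54 tested repair genes (x axis, Em+ over Em-, bars are the standard error), grouped by pathway, with genes that passed the test in red. Ercc4 (2.34) and Fan1 (1.10) lie apart from the rest, and the genes that did not pass lie between -0.27 and 0.41.

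Ercc4 encodes XPF, the nuclease that cuts 5′ of a lesion together with its partner ERCC1. In the RefSeq table (chr16:13109736-13152009, mm10) it stood at 10.1 and 11.8 in Em+ cells and at 2.16 and 2.16 in Em- cells, from 1218 and 1249 counts against 263 and 275. Both Em+ values were several times above both Em- values. The means were 10.95 ± 1.16 and 2.16 ± 0.00474 (SD, n = 2 each), with a log2 fold change of 2.34 (standard error, SE, 0.10, quasi-likelihood test of edgeR, Benjamini-Hochberg adjusted p = 1.1e-05). Ercc1 did not pass, at 10.5 and 9.84 in Em+ and 10.2 and 11.1 in Em- cells.

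The size of the Ercc4 difference depended on the transcript models used for counting. The known-gene models, which also end at base 13152009 of chromosome 16, gave a log2 fold change of 2.22. The Ensembl and ENCODE models end at base 13150617, and with them it was 0.70 (edgeR adjusted p = 0.052) and 0.69 (edgeR adjusted p = 0.0501), so the gene no longer passed. Counts summed over the 5 Ensembl models were 290 and 350 in Em+ and 211 and 224 in Em- cells, still without overlap. The RefSeq model (6703 bases in 11 exons) reaches 1392 bases further, over chr16:13150618-13152009, or 20.8% of its length. This stretch belongs to the last exon, which starts at 13147526, and it follows the end of the coding sequence at 13148256, so it is annotated as 3′ untranslated sequence. The RefSeq count exceeded the Ensembl sum by 928 and 899 reads in Em+ libraries and by 52 and 51 reads in Em- libraries. As counts per library total (CPM) these were 51.7 and 56.8 against 2.86 and 2.69, a 19.5-fold difference, while the Ensembl part (16.2 and 22.1 against 11.6 and 11.8) differed by 1.64-fold. How reads that fit several models were assigned, and whether counting used strand, were not given in the sources used here, so the difference between tables is not a direct count of that stretch. Among the other listed genes tested with RefSeq models, the log2 fold change moved between tables by at most 0.157 (Nbn, Ensembl). Ercc2, below the filter with RefSeq models, was tested with Ensembl and ENCODE models. Its log2 fold change was 0.19 with both (edgeR adjusted p = 0.48 and 0.486). With RefSeq models the ratio of its group means was 0.937, and the groups overlapped.

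The known-gene table divides the reads of Ercc4 among 4 overlapping models. The model that starts at 13111731 and runs to 13152009 took 1197 and 1239 counts in Em+ and 245 and 266 in Em- cells. The model with the 5′ start at 13109736 and the same end took 31 and 27 against 25 and 21. A pair of models of the 5′ part that end by 13127665 each took 2 and 5 counts in Em+ and 12 and 4 in Em- cells. The full-length model, alone in the RefSeq table, took 1218 and 1249 counts against 263 and 275 there, so counts per model depend on how reads were assigned and do not locate them along the gene.

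Fan1 encodes a nuclease that is drawn to ubiquitinated FANCD2 at crosslinks. It lies on the minus strand at chr7:64346758-64374095 and stood at 10.9 and 13.3 in Em+ against 5.99 and 5.31 in Em- cells, from 678 and 732 counts against 379 and 350. The lower Em+ value was still well above the higher Em- value. Means were 12.09 ± 1.72 and 5.65 ± 0.486 (SD, n = 2 each), a log2 fold change of 1.10 (SE 0.12, quasi-likelihood test of edgeR, Benjamini-Hochberg adjusted p = 0.00205). Here the tables gave like results. Of the 4 Ensembl models, the model confined to the 5′ end (chr7:64370153-64374095, 3162 bases) was assigned most reads. It took 529 and 555 in Em+ and 291 and 261 in Em- cells. The full-length model (3475 bases) held 72 and 86 against 51 and 57, also without overlap.

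**Figure D2:**
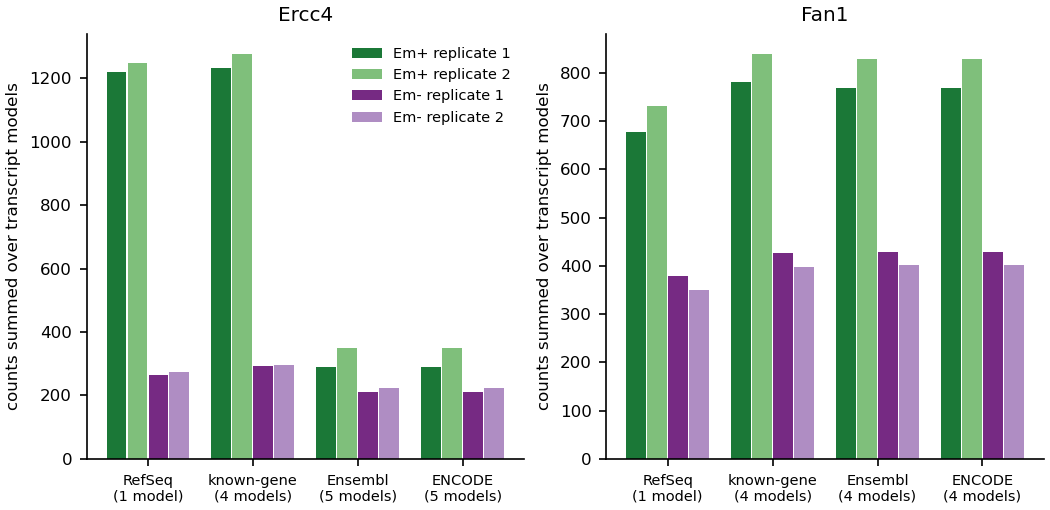
Counts of Ercc4 and Fan1 (y axis), summed over the transcript models of each of the 4 deposited tables (x axis), with a bar per library. For Ercc4 the Em+ bars fall from 1218 and 1249 (RefSeq) to 290 and 350 (Ensembl) while the Em- bars stay between 211 and 295, and for Fan1 all 4 tables show the same pattern.

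Ercc6 encodes CSB, the ATPase that recognises RNA polymerase stalled at damage and starts transcription-coupled repair. It lies at chr14:32513521-32580989 and stood at 16.2 and 18.1 in Em+ and 12.6 and 12.1 in Em- cells. The groups did not overlap, with means of 17.1 ± 1.30 and 12.3 ± 0.380 (SD, n = 2 each) and a log2 fold change of 0.48 (SE 0.08, quasi-likelihood test of edgeR, Benjamini-Hochberg adjusted p = 0.0134). Its 8422-base model took the same counts in all 4 tables, 2451 and 2408 against 1930 and 1927. Without Em- replicate 2 the adjusted p was 0.0714 at a log2 fold change of 0.44.

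Brca2, a tumour suppressor gene of homologous recombination, lies at chr5:150522621-150570146. It stood at 35.8 and 41.4 in Em+ and 27.9 and 28.9 in Em- cells, the most abundant of the 4 genes. Means were 38.59 ± 3.95 and 28.45 ± 0.698 (SD, n = 2 each), with a log2 fold change of 0.44 (SE 0.08, quasi-likelihood test of edgeR, Benjamini-Hochberg adjusted p = 0.0315). The call was lost without either Em- library, with an adjusted p of 0.219 without Em- replicate 1 and 0.0927 without Em- replicate 2 (edgeR), while the log2 fold change stayed at 0.41 and 0.47. The gene next to it on the side of lower coordinates, Gm5, 20401 bases away, was also higher in Em+ cells (1.62, edgeR adjusted p = 0.0487). The other 7 tested neighbours of the 4 genes did not pass, and the highest of them was Mkl2, 104471 bases from Ercc4, at 0.53 (edgeR adjusted p = 0.0931).

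**Figure D3:**
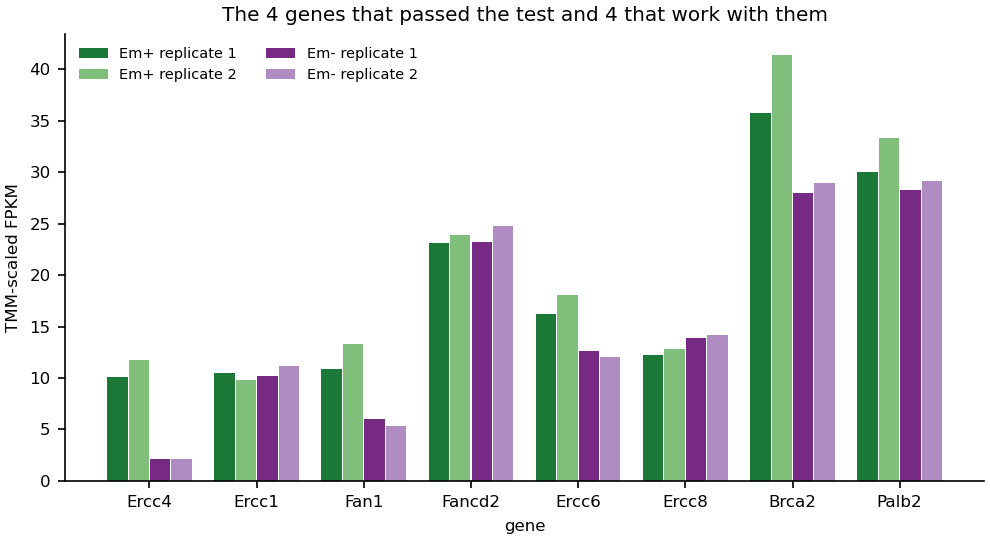
TMM-scaled FPKM (y axis) of the 4 genes that passed the test and of 4 that work with them (x axis), with a bar per library. Both Em+ bars lie above both Em- bars for Ercc4, Fan1, Ercc6 and Brca2. Of the others, Palb2 also lies above in both Em+ libraries, Ercc8 lies below in both, and Ercc1 and Fancd2 overlap. Values are from RefSeq models, and the size of the Ercc4 difference depends on the models.

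The 250 bases before the start of the RefSeq entry of each of the 4 genes are shown because these genes moved in the same direction. The windows come from RefSeq on build GRCm38.p6, at chr5:150522371-150522620 (Brca2, plus strand), chr16:13109486-13109735 (Ercc4, plus strand), chr14:32513271-32513520 (Ercc6, plus strand) and chr7:64374057-64374306 (Fan1, minus strand). The entry of Fan1 starts at 64374056, so that 39 bases of its window lie inside the deposited model, while the other 3 windows end where the deposited models start. Each is written 5′ to 3′ on the strand of the gene, and capitals mark matches to the motifs searched.
Brca2: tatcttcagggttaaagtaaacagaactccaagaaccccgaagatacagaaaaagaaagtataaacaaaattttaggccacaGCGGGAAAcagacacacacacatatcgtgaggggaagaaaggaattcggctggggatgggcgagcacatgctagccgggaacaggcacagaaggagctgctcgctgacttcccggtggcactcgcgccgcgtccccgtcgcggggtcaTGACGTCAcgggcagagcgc
Ercc4: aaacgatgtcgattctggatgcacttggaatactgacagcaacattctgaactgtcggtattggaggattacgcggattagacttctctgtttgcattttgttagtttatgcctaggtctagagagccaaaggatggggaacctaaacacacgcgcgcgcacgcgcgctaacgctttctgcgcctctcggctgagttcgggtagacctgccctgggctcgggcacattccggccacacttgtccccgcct
Ercc6: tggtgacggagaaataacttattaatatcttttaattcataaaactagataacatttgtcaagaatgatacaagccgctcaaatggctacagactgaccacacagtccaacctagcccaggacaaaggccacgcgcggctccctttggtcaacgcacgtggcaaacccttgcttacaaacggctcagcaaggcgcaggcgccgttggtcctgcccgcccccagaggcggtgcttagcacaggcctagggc
Fan1: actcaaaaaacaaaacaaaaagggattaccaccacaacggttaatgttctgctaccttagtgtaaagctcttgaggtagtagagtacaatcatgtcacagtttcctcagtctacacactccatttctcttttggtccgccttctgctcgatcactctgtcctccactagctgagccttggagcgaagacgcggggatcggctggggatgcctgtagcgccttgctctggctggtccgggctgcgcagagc
A pair of motifs was searched on both strands, and their matches do not overlap each other. TTTNNCGC is a form of the site of E2F factors, which drive replication genes, and TGACGTCA is the cyclic AMP response element. Brca2 held both, GCGGGAAA at 168 to 161 bases and TGACGTCA at 20 to 13 bases before the start. Ercc4, Ercc6 and Fan1 held neither. Of the 55 genes 44 had an entry, and 7 of these (15.9%) held the E2F letters, namely Bard1, Brca2, Chek2, Ercc5, Fancg, Msh3 and Xrcc6, against 4.94% of 27025 genes. The cyclic AMP element was found in Brca2 and Rad51c (4.55% against 1.77% of all genes). Of the 7 genes with the E2F letters only Brca2 passed the test, and a match describes letters in this window and shows no binding.

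The other nucleotide excision repair genes did not pass. Among the damage sensors, Ddb1, the adaptor of a ubiquitin ligase that also marks many other proteins, was the second most abundant listed gene. It stood at 292 and 269 in Em+ and 283 and 286 in Em- cells. Its partner Ddb2, which binds UV lesions, stood at 17.2 and 17.2 against 17.1 and 17.4, and both genes overlapped between groups. Xpc, the sensor of global repair, was at 20.3 and 19.4 against 18.4 and 18.1. Ercc8 encodes CSA, which acts with the product of Ercc6, and it had the lowest log2 fold change of the pathway at -0.16 (SE 0.08, edgeR adjusted p = 0.245), with 12.3 and 12.8 in Em+ and 13.9 and 14.2 in Em- cells. The pair that starts transcription-coupled repair thus had opposite signs, and neither gene's groups overlapped, though only Ercc6 passed. Of all genes tested, 29.8% lay above and 29.6% below without overlap. Ercc3, a helicase of TFIIH that opens the strands, was at 28.0 and 27.6 against 23.3 and 23.2, higher in both Em+ libraries with an edgeR adjusted p of 0.0893. Ercc5, the nuclease that cuts 3′ of the lesion, stood at 26.5 and 28.7 against 29.9 and 29.6. Xpa, which verifies the damage, was among the low members at 7.35 and 7.61 against 7.82 and 7.06.

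In Fanconi crosslink repair, none of the 8 genes of the core complex, which ubiquitinates FANCD2 and FANCI, passed the test. Their summed level was 90.2 and 93.2 in Em+ and 91.6 and 91.5 in Em- cells, so that the Em- values lay inside the Em+ range. Fancm, the translocase that brings the complex to DNA, was at 13.6 and 15.0 against 12.8 and 12.4. Fance, the subunit that contacts FANCD2, had the lowest log2 fold change at -0.22 (SE 0.08, edgeR adjusted p = 0.159), from 16.8 and 15.6 against 18.3 and 19.4. These 2 core genes pointed in opposite directions without overlap between groups, as 29.8% (higher) and 29.6% (lower) of all genes did, and neither passed. Fancl, the ubiquitin ligase subunit, was at 16.3 and 15.6 against 15.3 and 15.4, and Fanca at 16.2 and 19.2 against 16.7 and 17.1. The least abundant core genes, Fancc, Fancf and Fancg, lay between 5.02 and 6.63 in every library. Fancd2 stood at 23.1 and 23.9 in Em+ and 23.2 and 24.8 in Em- cells, and Fanci at 20.3 and 24.3 against 18.8 and 20.4.

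The other nuclease genes of the pathway did not pass. Slx4, the scaffold that holds several nucleases including the one encoded by Ercc4, was at 12.2 and 14.6 in Em+ and 11.2 and 10.9 in Em- cells (edgeR adjusted p = 0.145). Mus81, the catalytic subunit of a nuclease for branched DNA, was low at 4.92 and 6.02 against 5.27 and 5.45. Its partner Eme1, the most abundant gene of the pathway, stood at 41.5 and 35.9 against 40.7 and 42.4. For both partners the groups overlapped.

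Apart from Brca2, the genes of homologous recombination did not pass. Of the complex that senses broken ends, Mre11a was at 36.7 and 36.6 in Em+ and 36.0 and 36.6 in Em- cells, and Rad50 at 38.9 and 40.1 against 40.8 and 40.2. The third subunit, Nbn, which carries ATM to breaks, had the lowest log2 fold change of the pathway at -0.25 (SE 0.08, edgeR adjusted p = 0.113), from 18.7 and 17.2 against 21.9 and 21.0. The ratio of the group means was 1.01 for Mre11a and 0.976 for Rad50, and 0.838 for Nbn, which was lower in both Em+ libraries. Rbbp8 (CtIP), which starts resection of the ends, stood at 14.4 and 14.0 against 14.0 and 14.4. Brca1 was at 45.3 and 43.1 against 47.0 and 49.0. Its partner Bard1 was at 24.1 in Em+ replicate 1, 31.1 in Em+ replicate 2 and 24.3 and 25.1 in Em- cells, so its difference was that of 1 library. Palb2, which joins BRCA1 to BRCA2, stood at 30.0 and 33.3 against 28.3 and 29.2.

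The genes of strand exchange, Rad51c, Rad51d, Xrcc2, Xrcc3, Rad52 and Rad54l, did not pass. Their sum came to 74.0 and 76.3 in Em+ and 73.3 and 75.8 in Em- cells. Rad51c, Xrcc2 and Xrcc3 overlapped between groups, at mean log2 fold changes of -0.03, -0.02 and -0.05. Rad51d was at 5.63 and 5.64 against 5.98 and 6.23. Rad54l, a translocase of strand exchange, was at 23.9 and 24.3 against 23.4 and 23.5. None of these 6 genes had an unadjusted p under 0.05.

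Among the checkpoint kinases, Atm and Atr, which signal breaks and stalled forks, differed little. Atm stood at 15.9 and 17.6 in Em+ and 15.5 and 15.9 in Em- cells, with the highest log2 fold change of this group (0.10, SE 0.07, edgeR adjusted p = 0.427). Atr stood at 41.7 and 43.2 against 39.9 and 41.4. Chek1, the kinase downstream of ATR that restrains entry into mitosis under replication stress, was at 36.6 and 35.3 against 42.3 and 42.5. Both Em+ values lay below both Em- values, and the log2 fold change was -0.24 (SE 0.06, edgeR adjusted p = 0.072). Chek2, downstream of ATM, was at 30.8 and 30.6 against 30.0 and 29.8.

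No mismatch repair gene passed. Msh6, whose product finds single mismatches, was the most abundant listed gene and stood at 320 and 286 in Em+ and 367 and 364 in Em- cells. It was lower in both Em+ libraries, by different amounts, its log2 fold change being -0.27 (SE 0.09, edgeR adjusted p = 0.145). Msh3, whose product finds larger loops, was at 11.9 and 12.9 against 9.78 and 10.2, or 0.31 on the log2 scale (SE 0.08, edgeR adjusted p = 0.0688). These 2 mismatch sensor genes therefore lay on opposite sides. Pms2, the endonuclease, was at 14.7 and 13.8 against 14.7 and 14.5, and Exo1, the exonuclease, at 15.7 and 15.0 against 15.5 and 15.8. The sum of the 4 genes, most of it Msh6, was 363 and 328 against 407 and 404.

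No gene of single-strand break repair passed. Parp1, which senses nicks, was at 94.3 and 82.4 in Em+ and 103.5 and 99.3 in Em- cells. Xrcc1, the scaffold it recruits, was at 35.2 and 31.4 against 39.5 and 40.1, the lowest of the group at -0.26 (SE 0.08, edgeR adjusted p = 0.113). Lig1, the replicative ligase, was at 66.0 and 65.3 against 70.0 and 67.9. Lig3, the ligase bound to XRCC1, lay on the other side at 16.1 and 16.9 against 14.5 and 14.6, or 0.18 on the log2 scale (SE 0.07, edgeR adjusted p = 0.16). The sum of the 4 genes was 212 and 196 against 228 and 222.

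No gene of end joining passed. Xrcc5 and Xrcc6 encode Ku80 and Ku70, which bind broken ends as a pair. Xrcc5 was at 78.8 and 79.0 in Em+ and 70.2 and 72.0 in Em- cells, whereas Xrcc6 was at 61.9 and 55.01 against 67.1 and 66.1 (-0.19 on the log2 scale, SE 0.07, edgeR adjusted p = 0.177). Prkdc, the kinase that Ku recruits, was at 12.7 in Em+ replicate 1, 18.0 in Em+ replicate 2 and 11.6 and 11.5 in Em- cells. Its log2 fold change was 0.41 (SE 0.15, edgeR adjusted p = 0.144), the third highest outside Ercc4 and Fan1. The value rested on Em+ replicate 2, being 0.64 with that library alone and 0.14 with Em+ replicate 1 alone. Lig4, the ligase of the pathway, was at 11.8 and 12.5 against 9.84 and 10.9.

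Ratios between partner genes inside a library do not depend on how libraries are scaled to each other. The FPKM ratio of Ercc4 to Ercc1 was 0.962 and 1.20 in Em+ and 0.212 and 0.194 in Em- cells. It rests on the RefSeq value of Ercc4, whose log2 fold change of 2.34 was 0.70 with Ensembl models. Msh3 to Msh6 was 0.0372 and 0.045 against 0.0267 and 0.0279, a 1.51-fold difference of the means. Xrcc5 to Xrcc6 was 1.27 and 1.44 against 1.05 and 1.09, and Lig3 to Xrcc1 was 0.456 and 0.538 against 0.368 and 0.365. In these pairs both Em+ ratios lay above both Em- ratios. Nbn to Mre11a was lower in Em+ cells, 0.509 and 0.471 against 0.607 and 0.573, and Mus81 to Eme1 overlapped. These pairs were picked with the single values known, and with 2 libraries against 2 an exact permutation test cannot give a two-sided p below 0.333, so the ratios are given without a test.

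**Figure D4:**
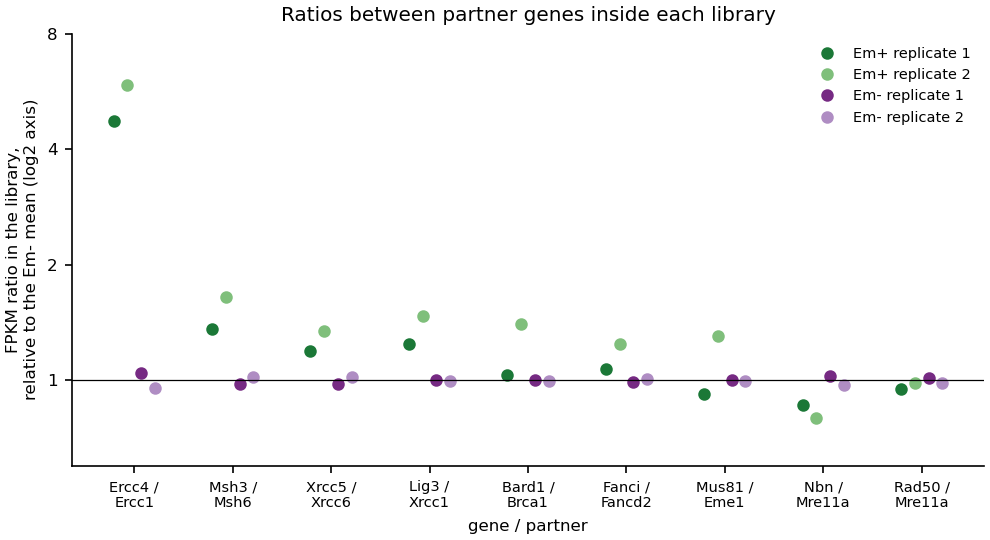
FPKM ratio of 9 gene pairs in each library, divided by the mean of the Em- libraries (y axis, log2 scale), with a point per library. The ratio of Ercc4 to Ercc1 lies 5.31-fold above Em- on average with the RefSeq value of Ercc4 (log2 fold change 2.34, or 0.70 with Ensembl models), smaller shifts are seen for Msh3 to Msh6, Xrcc5 to Xrcc6 and Lig3 to Xrcc1, and Em+ replicate 2 lies farther from Em- than Em+ replicate 1 in most pairs.

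The Em+ libraries differed from each other more than the Em- libraries did. Over the 54 genes, the median absolute log2 difference between the libraries of a group was 0.102 in Em+ and 0.0422 in Em- cells, against 0.141 and 0.0611 over all genes tested. It was over 0.2 for 11 repair genes in Em+, with Prkdc farthest apart (0.507), and for 1 gene, Fancf, in Em-. With Em+ replicate 2 as the only Em+ library 26 repair genes passed, 17 higher and 9 lower, where 41.4% of all genes passed (21.9% higher and 19.5% lower). With Em+ replicate 1 alone 12 passed, 7 higher and 5 lower, where 16.3% of all genes did (9.43% higher and 6.9% lower). In these fits the lone library is assumed to vary like the others. Both fits share the Em- libraries. With Em+ replicate 1 alone and with Em+ replicate 2 alone, the log2 fold changes were 2.23 and 2.45 for Ercc4, 0.94 and 1.24 for Fan1, 0.39 and 0.55 for Ercc6 and 0.33 and 0.54 for Brca2. They were 0.26 and 0.37 for Msh3, -0.22 and -0.27 for Chek1 and -0.19 and -0.35 for Msh6. Em+ replicate 2 is also the library with the high Rn45s share, whose part in these counts was not tested.

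**Figure D5:**
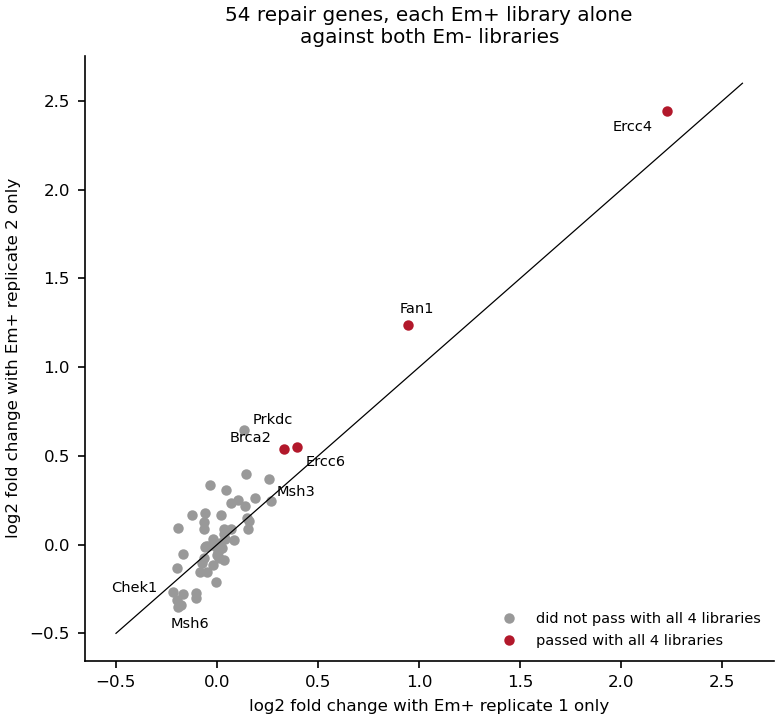
Log2 fold change of the 54 repair genes with Em+ replicate 1 (x axis) or Em+ replicate 2 (y axis) as the only Em+ library, each against both Em- libraries; the line marks equal values. Genes that passed with all 4 libraries are red, and among the grey ones Prkdc (0.14 and 0.64) lies farthest above the line.

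Levels spanned a wide range within the list. Msh6 (334) and Ddb1 (283) led, followed by Parp1 (94.9), Xrcc5 (75.0), Lig1 (67.3), Xrcc6 (62.5), Brca1 (46.1) and Atr (41.5), as means over all 4 libraries. Msh6, Ddb1 and Parp1 kept their order in every library, and so did Xrcc5 ahead of Lig1. Lig1 and Xrcc6 lay closer, yet Lig1 was the higher in each library. The median of the 55 genes was 16.2, near the 14.4 of all genes tested, and 46 reached a level of 10. The low end was formed by Fancg (5.26) and Ercc2 (1.41 and 1.78 in Em+, 1.63 and 1.78 in Em- cells). With RefSeq models Ercc2 lay below the filter, which uses deposited FPKM. With Ensembl and ENCODE models Ercc2 passed the filter and was tested.

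Longer repair genes tended to have higher log2 fold changes, as longer genes did in the whole table. Spearman's rho with transcript length was 0.37 across the 54 genes, 0.35 without Ercc4 and 0.27 across all 12050 genes. The 18 shortest repair transcripts (up to 2673 bases) had a median log2 fold change of -0.03 and the 18 longest (4263 bases or more) of 0.13. Genes of a library share its depth and RNA quality, so these values are descriptions. With level, rho was -0.32 across the repair genes and -0.31 across all genes. The transcripts of the 4 genes that passed measured 3475 (Fan1), 6703 (Ercc4), 8422 (Ercc6) and 11133 bases (Brca2), and the part of length in their values was not tested.

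Markers of the cell cycle were measured beside the repair genes. None of 15 S phase markers passed, with 5 lower and 1 higher at an unadjusted p under 0.05 (edgeR). Their summed level was 998 and 954 in Em+ and 1100 and 1097 in Em- cells, lower in both Em+ libraries. Of the 54 repair genes, 14 lay lower and 20 higher in Em+ cells without overlap, where 29.6% and 29.8% of all genes did. Of 15 markers of G2 and M phase Cenpe passed as higher, and 3 were higher and 0 lower at an unadjusted p under 0.05 (edgeR), among them Cenpe. Over all genes these shares were 14.5% and 10.7%. The summed level of this list was 1513 and 1413 against 1450 and 1449, which overlapped. The part of the cell cycle in the repair gene values was not tested. In sorted bulk RNA, fewer cells that express a gene and less of its RNA in each cell cannot be told apart.

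Of 100 further repair genes listed for the same pathways, translesion synthesis and direct reversal, 98 had a line in the table and 94 were tested. None passed the edgeR test, and DESeq2 and limma called none either, while 10 were higher and 10 lower at an unadjusted p under 0.05 with edgeR, near or below the shares of all genes given above (14.5% and 10.7%). Their median log2 fold change was -0.03. The farthest from 0 were Rmi2, of the complex that dissolves double Holliday junctions (-0.43, SE 0.14, edgeR adjusted p = 0.127), Apex2, an abasic endonuclease (0.41, SE 0.14, edgeR adjusted p = 0.137), and Rad51b, of homologous recombination (0.34, SE 0.16, edgeR adjusted p = 0.231). Rad51b stood at 11.9 and 17.0 in Em+ against 11.3 and 11.4 in Em- cells. Its log2 fold change rested on Em+ replicate 2, being 0.58 with that library alone and 0.07 with Em+ replicate 1 alone. By pathway, the other nucleotide excision genes had the lowest median (-0.10), with 12 of 14 below 0, where 5938 of all 12050 genes were. None of the 14 passed, and the group is named here because its median was the lowest.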

How the data were processed

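Total RNA depleted of ribosomal RNA was sequenced in 4 libraries, 2 per sorted fraction. Titles gave the groups and replicate numbers. The cell type entries match the titles, whereas the description names the other fraction in all 4. The authors deposited 4 tables with a raw count and an FPKM per transcript and library, per the file headers. Per the submitters' processing notes, Bowtie2 (version not given) and mm10 were used, while the counting program, annotation releases, multiple matches and strand were not given in the sources used here.

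The count column of Em- replicate 1 is 0 throughout in the RefSeq and Ensembl tables, so its counts were the rounded product of FPKM (plus 0.0005), length and library total. In libraries with both columns this returned the exact count for 99.95 to 99.97% of 24538 RefSeq transcripts, and all 29 listed repair transcripts shared with the known-gene table had equal counts there. RefSeq counts and FPKM were summed per symbol. The 12050 symbols with mean FPKM of at least 1 held 98.61 to 98.99% of counts and were tested with edgeR 4.0.16 (quasi-likelihood, TMM, two-sided, R 4.3.3, no covariate), Benjamini-Hochberg threshold 0.05, common biological coefficient of variation 0.0731. The SE is the log2 fold change divided by the square root of F. The pipeline was tested on simulated data. Alternatives were DESeq2 1.42.0, limma 3.58.1, other scalings, filters, tables and libraries left out. Deposited start positions count from 0, and 1 was added.

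The 55 genes, the further lists and the markers were chosen with earlier results of these data known. Any of the 55 could be named; full statistics were given for each that passed and for the highest and lowest log2 fold change of each pathway, and, of the further repair genes, for the 3 farthest from 0. The neighbours of called genes were named after their values were seen. Promoter windows and motif shares used RefSeq entries on GRCm38.p6; gene features came from GENCODE annotation of the same build. Intervals are not given because PCR reads lacking molecular identifiers may repeat a molecule. The deviations of same-numbered libraries from their group means did not correlate (r = 0.00337). With 2 libraries a group this cannot decide whether the numbers pair them. The main fit took the libraries as unpaired, and a fit with the replicate number as a block is given below.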

Additional observations from a re-analysis of the deposited data

How the results depend on the processing

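The 4 calls among the repair genes held with DESeq2, with edgeR under other scalings, without a filter on low values, with the longest transcript per symbol and in the known-gene table, and 3 of them (without Ercc4) held in the Ensembl table and in the ENCODE table, the latter chosen after seeing the data. With limma 2 repair genes passed at either pseudocount (Ercc4 and Fan1). With a mean deposited FPKM of at least 5 the count was 1 of 46 tested (Ercc6), since Ercc4 and Fan1 lay below that filter. Deposited FPKM is on a lower scale than the levels given above. It was 4.97 and 4.92 in Em+ against 1.09 and 1.10 in Em- cells for Ercc4. For Fan1 it was 5.33 and 5.56 against 3.04 and 2.695. Leaving out 1 library gave 2 to 26 calls. The further repair genes went from 0 calls to 1 (Uvssa) without a filter and to a range of 0 to 51 with 1 library left out. The median log2 fold change of the 54 genes was -0.12 with limma at a pseudocount of 1 and -0.15 at 0.1, where the median of all genes was -0.14 and -0.16. Without a filter the median was -0.047 over 55 listed genes, where that of all genes was 0.029. At a mean deposited FPKM of at least 5 it was 0.036 over 46 listed genes, where that of all genes was 0.004. Atm turned to -0.062 and -0.069 with limma. Brca2 passed neither with limma (0.26 and 0.27, adjusted p = 0.345 and 0.35) nor at the higher filter (0.48, edgeR adjusted p = 0.0604), and Ercc6 not with limma (0.27 and 0.31, adjusted p = 0.258 and 0.265). Limma was run on deposited FPKM without the TMM scaling of the main fit. The causes of these shifts were not tested. Over all genes, against 559 calls, there were 1178 without a filter, 171 at the higher filter, 293 and 269 with limma, and 490 to 4992 with 1 library left out.

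The replicate number added as a block gave 6 repair genes, adding Msh3 (0.31, edgeR adjusted p = 0.024) and Prkdc (0.39, edgeR adjusted p = 0.0115), 2 further repair genes (Brip1 higher, Ung lower) and 1552 genes in all. The deviations of same-numbered libraries did not correlate (r = 0.00337), and with 2 pairs this does not show whether they share more than a number.

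Of 280 single-gene alternatives over 18 genes, 248 kept direction and side of the threshold, 10 fell short of it, 20 newly passed it and 2 reversed. Between 115 and 29410 counts stood behind each tested repair gene in a library, and with 2 libraries a group, differences of the size seen for most of them could not be told from the spread.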
